A study of Homo sapiens with 15 samples.

Results

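The genes described here encode the enzymes of glycolysis, the kinases that steer glucose carbon, the hypoxia-inducible factors (HIFs) with their prolyl hydroxylases, and genes known to be induced when oxygen is low. They were taken as a list of 35 gene symbols, of which 34 were measured by at least 1 probe set with a single gene symbol, among 19775 genes in all. CA9, the remaining member, was not analysed here. Members were chosen by symbol, with no measured value in the rule, but with earlier results of these data known. Their shares beside those of all genes are therefore no independent evidence. Where a gene had several probe sets, which held for 22 of the 34 members, the one with the highest mean over all arrays stood for it.

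Expression was measured on 15 Affymetrix U133 Plus 2.0 oligonucleotide arrays of 9 human lymphoid cell lines. Classical Hodgkin lymphoma was represented by 10 arrays of the lines L540, L540Cy, L428, L1236, HDLM2 and KM-H2. The non-Hodgkin lines (5 arrays) were Reh, from B cell acute lymphoblastic leukaemia, Namalwa, from Burkitt lymphoma, and SU-DHL-4, from B cell non-Hodgkin lymphoma. The design text gives biological duplicates for 6 of the lines, and L540, L540Cy and SU-DHL-4 have 1 array each. No treatment, genetic change or oxygen level is named in the labels for any line. L540Cy is known from background as a subline of L540, so both were averaged to 1 line of origin, which left 5 Hodgkin and 3 non-Hodgkin lines of origin. HDLM2 and L540 are known as T cell derived, whereas the non-Hodgkin lines are B cell derived, so disease and lineage cannot be told apart for part of the comparison. Each line stands for a single tumour kept in culture, without the inflammatory cells that surround Hodgkin cells in a lymph node.

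Glycolysis splits glucose into pyruvate and yields ATP without oxygen, and lactate dehydrogenase turns the pyruvate into lactate. Many of its steps are run by several isoforms encoded by separate genes, whose use differs between tissues and tumours. When oxygen is plentiful, prolyl hydroxylases such as the products of EGLN1 and EGLN3 mark the HIF alpha subunits (HIF1A and EPAS1) for destruction. When oxygen is scarce the subunits persist and, with a beta subunit, bind a short DNA core near genes of glycolysis, blood vessel growth and mitochondrial removal. HIF activity is controlled mainly at the protein level, which arrays do not measure.

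The HIF-binding core is written as ACGTG or GCGTG. Both were searched on both strands, where they read CACGT and CACGC, and a CACGTG holds ACGTG on either strand. The searched windows ran from 250 bases before to 50 bases after the transcript start (RefSeq, GRCh38.p14). Of the 34 measured members, 31 had 55 windows in the table. ACGTG was present in 23 of these 55 windows (41.8%), against 21.4% of all 35116 windows. Either core was present in 38 of the 55 (69.1%), against 48.4% of all windows. A match describes letters only and is no evidence that HIF binds there. The 250 bases before the start are printed for 5 members that carry the results below, with every core in capitals.

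The first is ENO2, the gene that differed between Hodgkin and non-Hodgkin lines, and BNIP3 is the gene that was lowest in L540. ANKRD37, DDIT4 and EGLN1 follow as examples of genes whose duplicate arrays were over 1 log2 apart in at least 2 lines. ALDOC, KDM3A and ADM also met this rule and are not printed. In the 250 bases before the start ALDOC held 3 ACGTG and 2 GCGTG, whereas KDM3A and ADM held GCGTG and no ACGTG.
ENO2, chr12:6914330-6914579, plus strand: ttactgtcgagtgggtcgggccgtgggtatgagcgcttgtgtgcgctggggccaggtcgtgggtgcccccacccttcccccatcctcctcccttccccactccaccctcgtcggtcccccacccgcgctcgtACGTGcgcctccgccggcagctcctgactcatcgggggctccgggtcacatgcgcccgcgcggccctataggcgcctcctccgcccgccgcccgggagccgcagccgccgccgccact
BNIP3, chr10:131981924-131982173, minus strand: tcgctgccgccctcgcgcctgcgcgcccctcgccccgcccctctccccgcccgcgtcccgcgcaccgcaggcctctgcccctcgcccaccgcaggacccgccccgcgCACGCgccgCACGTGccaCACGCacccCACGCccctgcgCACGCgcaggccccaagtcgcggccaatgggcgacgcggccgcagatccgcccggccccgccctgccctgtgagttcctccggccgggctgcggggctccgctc
ANKRD37, chr4:185396591-185396840, plus strand: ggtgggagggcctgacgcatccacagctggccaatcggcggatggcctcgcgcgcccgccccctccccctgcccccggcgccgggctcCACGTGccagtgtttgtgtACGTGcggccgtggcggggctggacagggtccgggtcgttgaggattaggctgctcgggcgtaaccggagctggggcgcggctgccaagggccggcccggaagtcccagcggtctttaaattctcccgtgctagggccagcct
DDIT4, chr10:72273674-72273923, plus strand: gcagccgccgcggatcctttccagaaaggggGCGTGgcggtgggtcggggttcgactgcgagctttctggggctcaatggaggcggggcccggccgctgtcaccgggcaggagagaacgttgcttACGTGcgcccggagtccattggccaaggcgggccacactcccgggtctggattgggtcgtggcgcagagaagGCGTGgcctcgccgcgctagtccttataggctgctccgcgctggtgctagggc
EGLN1, chr1:231422288-231422537, minus strand: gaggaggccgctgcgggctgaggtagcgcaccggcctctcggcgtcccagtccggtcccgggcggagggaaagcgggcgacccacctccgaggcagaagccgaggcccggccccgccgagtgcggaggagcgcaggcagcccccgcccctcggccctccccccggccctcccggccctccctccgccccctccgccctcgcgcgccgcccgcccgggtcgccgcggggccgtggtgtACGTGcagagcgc
ENO2 and EGLN1 had 1 core each in these bases, at 118 and 13 bases before the start. ANKRD37 had 3 and DDIT4 had 3, and BNIP3 had 6, all between 143 and 104 bases before the start.

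The deposited values are log2 signals made with RMA, a method that corrects background, normalises arrays to each other and summarises the probes of a set. A step of 1 is a doubling of signal, differences of dim genes are compressed, and levels of different probe sets cannot be set against each other. Array medians lay between 5.5 and 5.57. Namalwa replicate 2 had the lowest upper quartile, at 7.31, and all other arrays had 7.54 to 7.72. The Hodgkin marker TNFRSF8 (CD30) lay at 9.61 to 12.70 in the Hodgkin lines and at 5.71 to 6.51 in the others. The B cell receptor gene CD79A lay at 5.68 to 6.22 in the Hodgkin lines and at 11.97 to 12.72 in the others. As list averages, Hodgkin markers lay at 9.01 to 12.51 in Hodgkin lines and 5.60 to 6.38 in the others. B cell markers averaged 5.60 to 6.66 in Hodgkin lines and 10.23 to 11.50 in the others. Single markers overlapped. The Hodgkin marker CCL17 was at 6.20 in L540, within the 5.92 to 6.41 of the non-Hodgkin lines. The B cell gene PAX5 was at 10.81 in L1236, within their 10.78 to 11.81. CD3E and CD3G, defining T cell genes, did not exceed 5.76 in any line, HDLM2 and L540 included, and CD3D reached 8.60 in KM-H2. CD2, another T cell gene, was at 10.75 in HDLM2 and 6.70 in L540, and at 4.73 to 5.18 in the other 7 lines, L540Cy included. Averaged over each list, T cell markers lay between 5.29 and 6.48 in Hodgkin lines and between 5.49 and 5.75 in non-Hodgkin lines. Monocyte markers averaged 5.09 to 6.73 in Hodgkin lines and 5.08 to 5.28 in non-Hodgkin lines, with CD14 at 7.96 in KM-H2. The macrophage receptor gene CSF1R was at 8.15 in L540, 8.53 in L540Cy and 8.25 in KM-H2, and every Hodgkin line (6.40 to 8.53) lay above every non-Hodgkin line (6.24 to 6.37). Fibroblast, endothelial and epithelial lists averaged 5.18 to 5.95 in Hodgkin and 5.17 to 6.83 in non-Hodgkin lines, with DCN at 9.92 in SU-DHL-4. The part of these markers in the results was not tested.

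The duplicate arrays labelled Reh were unlike each other. Over 22 genes that were over 3 log2 higher in SU-DHL-4 than in the other 13 arrays, Reh replicate 1 was higher than replicate 2 in all 22, by a median of 3.995 log2. Of the 34 members, 17 (50%) had Reh replicate 1 between Reh replicate 2 and SU-DHL-4, against 43.1% of all genes. The Reh contrasts, and calls of other lines that this array changed, are given with and without it. In bulk RNA a lower share of expressing cells and less RNA per cell cannot be told apart.

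The comparison of Hodgkin with non-Hodgkin lines asked whether members differ by disease class beyond the spread between lines. ENO2, the neuronal isoform of enolase, was the single member that passed. The common glycolytic genes GAPDH, LDHA, LDHB, ALDOA and ENO1 had differences between -0.09 and 0.09 log2. The differences were tested with limma on line means, 5 against 3, and p-values were adjusted after Benjamini and Hochberg over the whole table, with a threshold of 0.05. A gene past the threshold is named called. Of the 34 members 1 was higher, 0 were lower and 33 were not called, and 4 (11.8%) had an unadjusted p under 0.05, against 14.2% of all genes. Over all genes 150 were called higher (0.759%) and 121 lower (0.612%). The members' median difference was 0.21 log2 and that of all genes was -0.02 log2, and 23 members had a positive and 11 a negative difference.

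**Figure D1:**
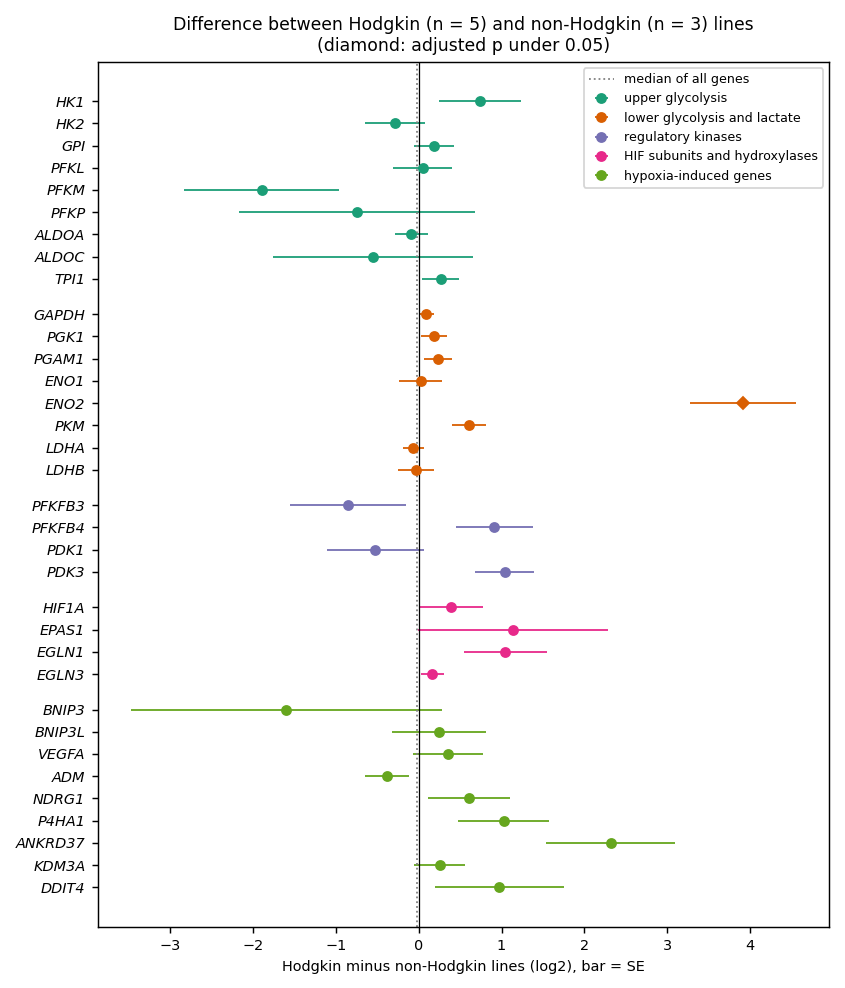
Difference between the means of 5 Hodgkin and 3 non-Hodgkin lines of origin for 34 members on the log2 scale (x axis), grouped by role, with the SE as bar and a diamond for adjusted p under 0.05. ENO2 stands at 3.92 log2 and ANKRD37 at 2.32 log2, the common glycolytic genes lie close to 0, and BNIP3 has the widest bar (SE 1.87 log2).

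Enolase makes phosphoenolpyruvate in the lower part of glycolysis. ENO2 had 11.11 and 11.44 in L428, 11.05 and 11.46 in L1236, 10.30 and 10.30 in KM-H2, 11.15 and 11.78 in HDLM2, 9.88 in L540 and 11.44 in L540Cy. It had 8.18 and 5.33 in Reh, 5.48 and 6.0 in Namalwa and 8.73 in SU-DHL-4. Every Hodgkin array lay above every non-Hodgkin array, and ENO2 was the 1 member with every Hodgkin line beyond the non-Hodgkin range, a separation found in 10.7% of all genes. Line means were 10.99 ± 0.49 in Hodgkin lines (SD, n = 5) and 7.07 ± 1.52 in non-Hodgkin lines (SD, n = 3). The difference was 3.92 ± 0.64 log2 (SE, limma adjusted p = 0.0379). The call ended without Reh replicate 1 (4.39 log2, adjusted p = 0.0526), Reh replicate 2 (3.44 log2, 0.0504) or L540Cy (3.76 log2, 0.0561), and without any single line but SU-DHL-4 (adjusted p from 0.0513 without KM-H2 to 0.107 without Reh, with L428, L1236, HDLM2, L540 and Namalwa between). The difference itself stayed between 3.25 and 4.83 log2 in all 30 alternatives that gave ENO2 a value.

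Apart from PKM, the other genes of lower glycolysis differed by -0.06 to 0.23 log2 between the classes. ENO1, the widely expressed enolase, averaged 13.72 in Hodgkin lines and 13.69 in non-Hodgkin lines (0.03 log2 apart). PKM, which encodes pyruvate kinase, averaged 13.28 ± 0.33 (SD, n = 5) in Hodgkin lines and 12.67 ± 0.20 (SD, n = 3) in non-Hodgkin lines. Its difference of 0.61 ± 0.20 log2 (SE) was not called (limma adjusted p = 0.244). L1236, KM-H2 and HDLM2 had 13.49 to 13.50 PKM signal, L540 and L540Cy had 12.77 and 12.74, and the non-Hodgkin lines had 12.45 to 12.83. PKM was called with the mean of all its probe sets (0.87 log2, adjusted p = 0.0331), with the probe set that varied most (1.13 log2, adjusted p = 0.0100) and in 2 fits of the 12 duplicated arrays (0.82 log2). PGAM1 (phosphoglycerate mutase) and PGK1 (phosphoglycerate kinase) differed by 0.23 and 0.19 log2, GAPDH by 0.09 log2, and the lactate dehydrogenase genes LDHA and LDHB by -0.06 and -0.03 log2, none of them called. The signs of GAPDH, ENO1, LDHA and LDHB turned in at least 1 alternative.

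In the upper part, from hexokinase to triose phosphate isomerase, 4 genes had positive and 5 had negative differences, and none was called. The hexokinases HK1 and HK2, which trap glucose in the cell, differed by 0.74 and -0.29 log2. HK1 differed by 0.08 log2 without Namalwa, whose line mean of 8.99 lay below Reh (10.59) and SU-DHL-4 (11.36), and by 1.26 log2 without SU-DHL-4. The largest difference was that of PFKM, the muscle isoform of phosphofructokinase, at -1.90 ± 0.93 log2 (SE, limma adjusted p = 0.42). PFKM averaged 9.70 ± 1.72 (SD, n = 5) in Hodgkin lines and 11.60 ± 0.36 (SD, n = 3) in non-Hodgkin lines, and the wide Hodgkin spread came with low values in HDLM2 (7.46) and L428 (8.48). PFKP, the platelet isoform, differed by -0.74 log2 and PFKL, the liver isoform, by 0.05 log2. The aldolase genes ALDOC and ALDOA differed by -0.56 and -0.09 log2, and TPI1 and GPI by 0.27 and 0.18 log2. PFKP, ALDOC, ALDOA and PFKL changed sign in some alternatives.

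Among the regulatory kinases, PDK3, which switches off pyruvate dehydrogenase, averaged 10.11 ± 0.66 in Hodgkin lines (SD, n = 5) and 9.08 ± 0.05 in non-Hodgkin lines (SD, n = 3). Its difference of 1.04 ± 0.36 log2 (SE) was not called (limma adjusted p = 0.259), and it was called in the fits of the 12 duplicated arrays (1.31 log2, adjusted p = 0.0308 and 0.0454), which lack L540. L540 had 8.41 PDK3 signal and lay below all 3 non-Hodgkin lines (9.02 to 9.12), whereas the other Hodgkin lines lay between 9.80 and 10.72. Its paralogue PDK1 differed by -0.52 log2. PFKFB4 and PFKFB3, which make the activator of phosphofructokinase, differed by 0.91 and -0.85 log2, in opposite directions, and neither was called.

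The HIF subunit genes HIF1A and EPAS1 (HIF-2 alpha) differed by 0.39 and 1.14 log2 (limma adjusted p = 0.697 and 0.699). The hydroxylase genes EGLN1 and EGLN3 differed by 1.05 and 0.16 log2. All 4 differences were positive and none was called. That of EPAS1 was 0.25 log2 without L1236, which had 9.28 against 4.09 to 5.94 in the other Hodgkin lines, and 0.37 log2 with the mean of its probe sets.

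Of 9 hypoxia-induced genes 7 had positive differences, and none was called. ANKRD37, a small ankyrin-repeat protein gene known as a HIF target, had line means of 11.33 in L428, 10.36 in L1236, 7.61 in KM-H2, 9.30 in HDLM2, 9.59 in L540 and 9.48 in L540Cy. It had 6.75 in Reh, 7.25 in Namalwa and 7.93 in SU-DHL-4. All Hodgkin lines but KM-H2 lay above all non-Hodgkin lines, and the difference was 2.32 ± 0.78 log2 (SE, limma adjusted p = 0.246), not called in any alternative. P4HA1, a collagen prolyl hydroxylase gene, differed by 1.03 log2, DDIT4, an inhibitor of mTORC1 signalling, by 0.97 log2 and the differentiation gene NDRG1 by 0.61 log2. VEGFA, the vascular growth factor gene, differed by 0.35 log2, and KDM3A, a histone demethylase gene, and BNIP3L, a mitophagy receptor gene, by 0.25 log2 each. The vasodilator gene ADM differed by -0.38 log2 at levels of 4.80 to 5.97. BNIP3, the paralogue of BNIP3L, differed by -1.60 ± 1.87 log2 (SE), with 3.82 in L540 and its subline and 10.86 to 12.69 in the other Hodgkin lines. BNIP3, BNIP3L, VEGFA and KDM3A changed sign in at least 1 alternative.

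**Figure D2:**
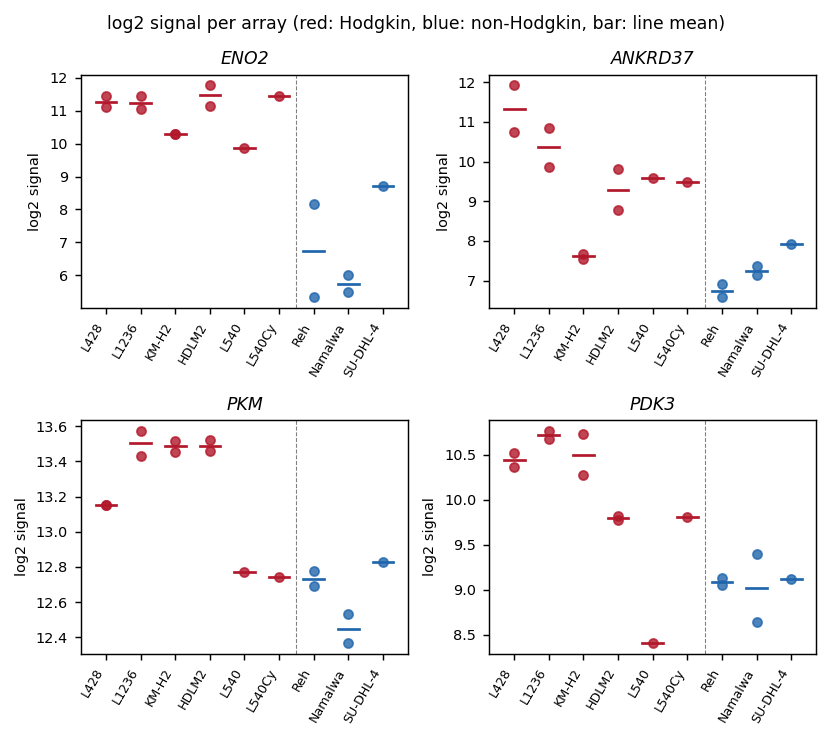
log2 signal (y axis) of ENO2, ANKRD37, PKM and PDK3 on each array (points) by cell line (x axis), with the line mean as a bar, 6 Hodgkin lines in red left of the dashed line and 3 non-Hodgkin lines in blue. ENO2 is at 9.88 or above in every Hodgkin array and at 8.73 or below in every non-Hodgkin array, while the other 3 genes overlap between classes.

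Further genes of the same pathways were read from 7 lists. In the list of other hypoxia-induced genes 2 of 29 measured genes were higher, 0 were lower and 27 were not called (list median 0.46 log2). In this list 9 of 29 genes (31.0%) had an unadjusted p under 0.05, against 14.2% of all genes. Of these, ZNF395 (-1.90 log2) and KDM4B (-0.55 log2) were lower in Hodgkin lines and the others were higher. The list was chosen with earlier results of these data known, so its share is no independent evidence. BHLHE40, a transcriptional repressor gene, averaged 11.98 ± 1.02 in Hodgkin lines (SD, n = 5) and 5.96 ± 1.95 in non-Hodgkin lines (SD, n = 3), a difference of 6.02 ± 0.92 log2 (SE, limma adjusted p = 0.0305). ERO1A, an oxidase of disulphide bond formation, averaged 10.72 ± 0.23 in Hodgkin lines (SD, n = 5) and 9.36 ± 0.48 in non-Hodgkin lines (SD, n = 3), 1.37 ± 0.23 log2 apart (SE, limma adjusted p = 0.0423). BHLHE40 stayed called in 24 of 30 alternatives and ended without L428, L1236, HDLM2, L540, Reh or SU-DHL-4 (adjusted p = 0.0676 to 0.0910). ERO1A stayed called in 18 and ended without any single line (0.0629 to 0.0870), without L540Cy (0.0740) or Reh replicate 1 (0.0559), with median-centred arrays (0.0519) and with trend and robust variance (0.0575).

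None of the other 6 lists held a called gene. They covered 17 glycolytic isoforms and side enzymes (median 0.04 log2), 9 glucose and lactate carriers (0.12 log2), 9 genes of pyruvate dehydrogenase and its regulators (-0.07 log2) and 13 genes of the tricarboxylic acid cycle (-0.22 log2). The pentose phosphate pathway had 7 measured genes (-0.02 log2) and the HIF regulators and partners 15 (-0.13 log2). At an unadjusted p under 0.05 these lists held 3, 2, 0, 1, 0 and 2 genes, in the order given, against the same 14.2% of all genes. SLC2A3, a neuronal-type glucose transporter gene chosen for mention after its values were seen, averaged 9.98 ± 1.15 in Hodgkin lines (SD, n = 5) and 5.57 ± 1.54 in non-Hodgkin lines (SD, n = 3). Its difference of 4.41 ± 0.85 log2 (SE) was not called (limma adjusted p = 0.0627), and it was called in 6 of 30 alternatives. AK4, a mitochondrial adenylate kinase gene also chosen after its values were seen, differed by 4.49 ± 1.49 log2 (SE, adjusted p = 0.241) with a Hodgkin spread of 2.77 log2 (SD, n = 5), and it was called in 3 of 30.

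Differences among the 9 lines were tested next. An F test of limma over 9 line means, with the spread taken from the 6 duplicated lines (6 residual degrees of freedom), called 28 of the 34 members, against 51.9% of all genes. The members' median range over the 9 lines was 2.28 log2 and that of all genes was 1.09 log2. All genes include dim ones, whose differences are compressed. A line mean of at least 6 log2 was reached by 13441 of the 19775 genes and by every member but ADM. The part of signal level in these comparisons was not tested. GAPDH, LDHA, VEGFA, ADM, EGLN3 and KDM3A were not called. All 9 genes of upper glycolysis and all 4 regulatory kinases were called, as were 6 of 8 genes of lower glycolysis, 3 of 4 HIF and hydroxylase genes and 6 of 9 hypoxia-induced genes. GAPDH had the smallest range among the glycolytic enzymes, 0.29 log2, followed by LDHA at 0.43 and PGK1 at 0.58 log2. BNIP3 had the widest range of all members, 8.92 log2, followed by PFKP at 6.33, ENO2 at 5.73, EPAS1 at 5.18 and ALDOC at 4.98 log2. The median range was 0.81 log2 in lower glycolysis, 1.70 log2 in upper glycolysis and 2.54 log2 among hypoxia-induced genes.

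**Figure D3:**
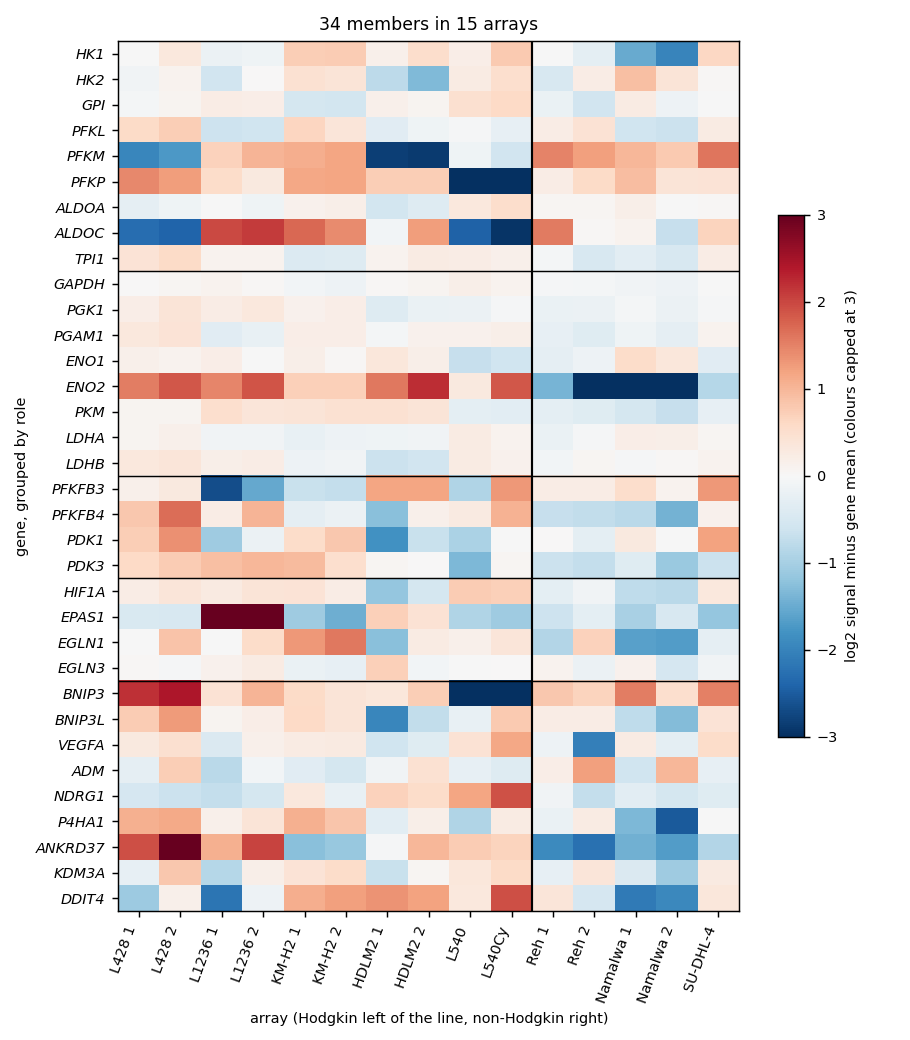
log2 signal of each of 34 members (rows, grouped by role) on each of 15 arrays (columns, Hodgkin arrays left of the line) minus the gene's mean over the 15 arrays, as colour capped at a difference of 3 log2 either way. BNIP3 and PFKP are lowest in L540 and L540Cy, EPAS1 is highest in L1236, PFKM is lowest in HDLM2 and ENO2 is lower in every non-Hodgkin array than in any Hodgkin array.

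To see in which line a member stood out, each line of origin was compared with the other 7, averaged, in the same fit. These contrasts share arrays and are not independent of each other. An extreme value in a line also enters the comparison mean of the others. This applies for example to BNIP3 and PFKP in L540, EPAS1 in L1236, PFKM in HDLM2 and L428, and ENO2 in Namalwa and Reh. A call of such a gene in another line can therefore rest in part on these values.

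L540 and L540Cy had 5 members higher (11.8% of all genes) and 8 lower (13.8%). Of these 13 calls, 11 held whichever array of a duplicated line was left out. L540 and L540Cy have no duplicates, so their own arrays were never left out. The 11 calls therefore cannot be set beside the counts for duplicated lines, whose own arrays were left out. BNIP3, a mitophagy receptor gene and classic hypoxia target, had 3.86 in L540 and 3.77 in L540Cy. It had 12.58 and 12.81 in L428, 10.83 and 11.41 in L1236, 10.95 and 10.77 in KM-H2, 10.73 and 11.12 in HDLM2, 11.20 and 11.05 in Reh, 11.93 and 10.89 in Namalwa and 11.90 in SU-DHL-4. No array outside this pair fell below 10.73, and the contrast was -7.62 ± 0.24 log2 (SE, limma adjusted p = 2.87e-08). The second probe set of BNIP3 had 3.82 in L540 and 3.78 in L540Cy and between 8.89 and 10.98 in the other lines. The paralogue BNIP3L had 10.52 in L540 and 11.53 in L540Cy, within the 9.40 to 11.77 of the other lines.

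PFKP showed the same pattern in this pair of lines. It had 5.63 in L540 and 5.73 in L540Cy, and line means between 11.01 in Reh and 11.96 in L428 elsewhere. The contrast was -5.67 ± 0.15 log2 (SE, limma adjusted p = 1.10e-08). The second PFKP probe set was dim in every line (4.93 to 5.64). Of the other phosphofructokinase genes, PFKM was lower by -0.52 log2 in L540 and L540Cy (adjusted p = 0.0149) and PFKL was not called. ALDOC, the brain-type aldolase gene, had 6.59 in L540 and 6.07 in L540Cy and was lower by -3.11 ± 0.39 log2 (SE, adjusted p = 0.000268), while ALDOA was higher by 0.48 log2 (adjusted p = 0.00834). ENO1 was lower by -0.71 log2, PDK3 by -0.70 and EPAS1 by -1.04 log2. The EPAS1 levels of 4.47 in L540 and 4.29 in L540Cy lay within the 4.09 to 5.94 of the other lines outside L1236. NDRG1 was higher by 1.80 ± 0.18 log2 (SE, adjusted p = 5.55e-05), HIF1A by 0.81 and GPI by 0.61 log2. HK1 (0.52 log2) and PKM (-0.33 log2) were also called, but HK1 lost the call without either L1236 or KM-H2 array or L428 replicate 1, and PKM without any array of L428, L1236, KM-H2 or HDLM2. The direction of PKM turned with its other probe sets, to 0.01 log2 with their mean and 0.35 log2 with the most variable one. Without Reh replicate 1, ENO2 (1.51 log2, adjusted p = 0.000402, against 1.30 log2 with it) and VEGFA (1.003 log2, 0.00254, against 0.87 log2) were also called in L540 and L540Cy.

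**Figure D4:**
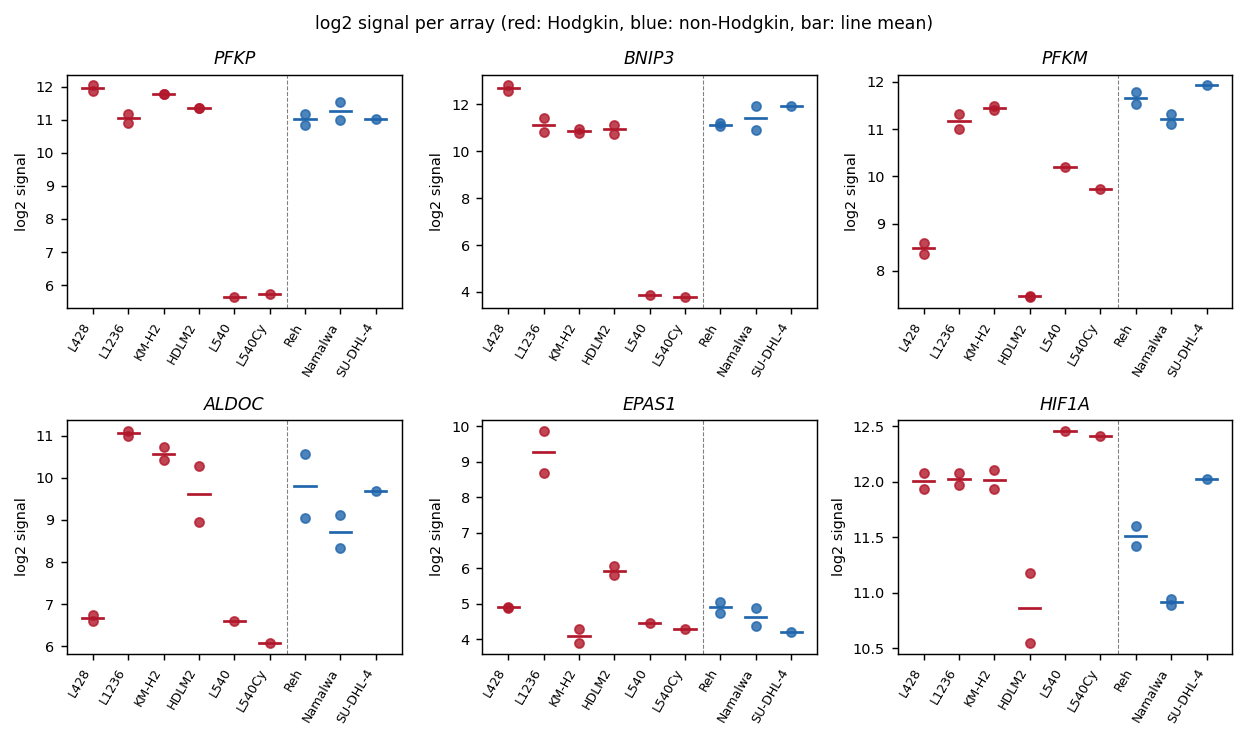
log2 signal (y axis) of PFKP, BNIP3, PFKM, ALDOC, EPAS1 and HIF1A on each array (points) by cell line (x axis), with the line mean as a bar, Hodgkin lines in red left of the dashed line and non-Hodgkin lines in blue. PFKP and BNIP3 are below 6 in L540 and L540Cy only, and EPAS1 is above 8 in L1236 only.

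L1236 had 7 members higher (14.4% of all genes) and 4 lower (10.6%), of which 6 calls held whichever duplicated array was left out. EPAS1 had 9.87 and 8.68 in L1236. The next line was HDLM2 with 6.07 and 5.81, and the remaining arrays lay between 3.89 and 5.07. The contrast was 4.55 ± 0.26 log2 (SE, limma adjusted p = 1.21e-06). Its other 2 probe sets had 4.67 and 3.63 in L1236 and stayed at or below 4.67 in all lines, so the high level rests on 1 probe set. ALDOC was higher by 2.28 log2 (adjusted p = 0.00193), PDK3 by 1.14 and PFKM by 0.86 log2, and PFKL was lower by -0.72 log2. PFKFB3, at 5.42 and 6.55, was lower by -2.49 ± 0.23 log2 (SE, adjusted p = 3.58e-05), and no other line mean of PFKFB3 fell below 7.18. ENO2 (1.98 log2) and NDRG1 (-0.69 log2) lost their calls without either L1236 array, ANKRD37 (1.83 log2) without L1236 replicate 2 and PKM (0.52 log2) without L1236 replicate 1. PGAM1 (-0.33 log2) lost its call without Reh replicate 1, HDLM2 replicate 2 or any array of L428, L1236 or KM-H2. Without L1236 replicate 1 the number of calls was 7 in place of 11.

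HDLM2 had 6 members higher (14.0% of all genes) and 7 lower (13%), with 6 calls that held whichever duplicated array was left out. PFKM had 7.48 and 7.44 in HDLM2, 8.37 and 8.59 in L428 and 9.73 or more in every other array. The contrast was -3.38 ± 0.13 log2 in HDLM2 (SE, limma adjusted p = 9.98e-08). PFKP, another phosphofructokinase gene, was called higher by 0.81 log2 in the same line (adjusted p = 0.00296). However, its HDLM2 mean of 11.35 lay within the 11.01 to 11.96 of the lines outside L540 and L540Cy. The low PFKP values of that pair enter the comparison mean. HIF1A had 10.54 and 11.18 in HDLM2 and 10.94 and 10.89 in Namalwa, and between 11.42 and 12.46 elsewhere. It was lower in HDLM2 by -0.99 ± 0.15 log2 (SE, adjusted p = 0.000908). BNIP3L was lower by -1.57 log2 (-0.97 log2 without HDLM2 replicate 1) and LDHB, the heart-type lactate dehydrogenase gene, by -0.71 log2, and PFKFB3 was higher by 1.26 log2.

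The other calls in HDLM2 each depended on single arrays. ENO2 (2.22 log2) and HK2 (-1.20 log2) lost the call without HDLM2 replicate 2, and PDK1 (-1.50 log2), ALDOA (-0.53 log2) and PKM (0.50 log2) without HDLM2 replicate 1. NDRG1 (0.75 log2) lost it without either array, and DDIT4 (1.44 log2) without either array of HDLM2, KM-H2 or Namalwa or without L428 replicate 1. Without HDLM2 replicate 1 there were 8 calls in place of 13.

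L428 had 13 members higher (12% of all genes) and 3 lower (11.7%), the line with the most members called higher. The 6 calls that held whichever duplicated array was left out were ANKRD37, BNIP3, PFKP, PFKL, PFKM and ALDOC. ANKRD37 had 10.74 and 11.92 in L428 and was higher by 2.94 ± 0.34 log2 (SE, limma adjusted p = 0.000165). BNIP3 had 12.58 and 12.81 and was higher by 2.53 ± 0.24 log2 (SE, adjusted p = 5.08e-05). Phosphofructokinase genes moved both ways in L428, with PFKP higher by 1.51 log2 and PFKL by 0.73 log2 and PFKM lower by -2.21 ± 0.13 log2 (SE, adjusted p = 1.67e-06). ALDOC, at 6.74 and 6.60, was lower by -2.73 log2 (adjusted p = 0.00069). Without L428 replicate 1 there were 8 calls in place of 16, and without L428 replicate 2 there were 6. ENO2 (2.01 log2), P4HA1 (1.27), PDK1 (1.12), PDK3 (0.82), TPI1 (0.55), PGAM1 (0.40) and LDHB (0.37 log2) lost the call without either L428 array, as did NDRG1 (-0.63 log2), which also lost it without L1236 replicate 2. PFKFB4 (1.41 log2) and BNIP3L (1.14 log2) lost it without L428 replicate 2.

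KM-H2 had 9 members higher (15.2% of all genes) and 5 lower (12.9%). Its calls that held whichever duplicated array was left out were PFKP, higher by 1.31 ± 0.15 log2 (SE, limma adjusted p = 0.000152), PFKM, higher by 1.18 ± 0.13 log2 (SE, adjusted p = 9.54e-05), and HK1, higher by 0.81 ± 0.16 log2 (SE, adjusted p = 0.00336). The KM-H2 mean of PFKP (11.79) lay within the 11.01 to 11.96 of the other lines outside L540 and L540Cy. That of PFKM (11.45) lay below Reh (11.66) and SU-DHL-4 (11.93) and above the remaining lines. KM-H2 was the Hodgkin line with the highest EGLN1 signal, at 11.53 and 11.82, and the lowest ANKRD37 signal, at 7.56 and 7.67. EGLN1 (1.66 log2), ALDOC (1.73), P4HA1 (1.07), ANKRD37 (-1.31), PFKFB3 (-0.88), GPI (-0.60) and TPI1 (-0.47 log2) were called but lost the call without either KM-H2 array. PDK3 (0.89 log2) and PFKL (0.55 log2) lost it without KM-H2 replicate 1, and EPAS1 (-1.37 log2) and PKM (0.50 log2) without KM-H2 replicate 2. Without either KM-H2 array there were 5 calls in place of 14. Without Reh replicate 1, ENO2 (1.09 log2, adjusted p = 0.00249, against 0.89 log2 with it) and DDIT4 (1.36 log2, 0.0453, against 1.30 log2) were also called.

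Namalwa had 5 members higher (11.3% of all genes) and 13 lower (16.5%), the line with the most members called lower. ENO2 was lower by -4.33 ± 0.53 log2 (SE, limma adjusted p = 0.000227). DDIT4, at 9.19 and 9.38, was lower by -2.34 ± 0.45 log2 (SE, adjusted p = 0.00367). P4HA1, at 8.64 and 7.46, was lower by -2.22 ± 0.26 log2 (SE, adjusted p = 0.000179). HK1, at 9.22 and 8.76 against 10.45 or more in every other array, was lower by -2.04 ± 0.16 log2 (SE, adjusted p = 1.27e-05), and HK2 was called higher by 0.74 log2. HIF1A was lower by -0.93 log2, PFKL by -0.73 and PKM by -0.69 log2, and PFKM was higher by 0.91 log2. These calls held whichever duplicated array was left out, except that of HK2, which ended without either L428 or KM-H2 array, HDLM2 replicate 2 or Namalwa replicate 1. ANKRD37 (-1.72 log2), EGLN1 (-1.88), PFKFB4 (-1.28), BNIP3L (-1.21), PDK3 (-0.80) and TPI1 (-0.47 log2) lost the call without Namalwa replicate 2, the array with the lowest upper quartile. BNIP3 (1.06 log2), PFKP (0.72 log2) and ENO1 (0.53 log2) lost it without Namalwa replicate 1.

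Reh had 1 member higher (11% of all genes) and 7 lower (10.8%). PFKM, at 11.79 and 11.53, was higher by 1.43 ± 0.13 log2 (SE, limma adjusted p = 3.27e-05). ANKRD37, at 6.91 and 6.58, was lower by -2.30 ± 0.34 log2 (SE, adjusted p = 0.000842). ENO2, at 8.18 and 5.33, was lower by -3.16 ± 0.53 log2 (SE, adjusted p = 0.00184), and by -4.59 log2 without Reh replicate 1 and -1.74 log2 without Reh replicate 2. These 3 calls held whichever duplicated array was left out. VEGFA, at 9.55 and 7.65, was lower by -1.29 log2 (adjusted p = 0.0329) and by -2.23 log2 (adjusted p = 0.000175) without Reh replicate 1, and lost the call without Reh replicate 2, L1236 replicate 2, HDLM2 replicate 2 or any array of L428 or KM-H2. PDK3 (-0.73 log2) lost the call without either Reh array. GPI (-0.44 log2) lost it without Reh replicate 2 or any array of a Hodgkin line with 2 arrays, PGAM1 (-0.36 log2) without either array of Reh, L428, L1236 or KM-H2 or without HDLM2 replicate 2, and PKM (-0.36 log2) without either Reh array or any array of L428 or KM-H2 or without L1236 replicate 1. Without Reh replicate 1, PFKM was at 1.30 log2 (adjusted p = 0.000547), ANKRD37 at -2.46 log2 (0.00474) and GPI at -0.63 log2 (0.0248). PDK3 (-0.77 log2, 0.0654), PKM (-0.40 log2, 0.0816) and PGAM1 (-0.42 log2, 0.0740) were then not called. TPI1 (-0.54 log2, 0.0292, against -0.33 log2 with the array) and NDRG1 (-0.75 log2, 0.0281, against -0.44 log2) were called without it. The number of Reh calls was 7 without Reh replicate 1, 4 without Reh replicate 2 or any array of L428 or KM-H2, and 5 without either array of L1236 or HDLM2 replicate 2.

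SU-DHL-4, with 1 array, had 3 members higher (8% of all genes) and 1 lower (9.72%). PFKM, at 11.93, was higher by 1.73 ± 0.18 log2 (SE, limma adjusted p = 0.00014). BNIP3 was higher by 1.62 ± 0.33 log2 (SE, adjusted p = 0.00733) and PFKFB3 by 1.40 ± 0.31 log2 (SE, adjusted p = 0.012). The BNIP3 level of 11.90 lay within the 10.86 to 12.69 of the other lines outside L540 and L540Cy. When arrays were left out, that of SU-DHL-4 always stayed in. EPAS1, at 4.2, was lower by -1.25 log2 (adjusted p = 0.0365), a call that ended without either L428 or HDLM2 array or KM-H2 replicate 1, and under both rescalings of the arrays. Without Reh replicate 1, HK1 was also called (0.68 log2, adjusted p = 0.0489, against 0.66 log2 with it).

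L540Cy differed from L540 in 1 member, with 0.642% of all genes called higher and 0.845% lower. PFKFB3 had 9.37 in L540Cy and 7.18 in L540, a difference of 2.19 ± 0.43 log2 (SE, limma adjusted p = 0.0398). With 1 array each, the spread came from the other lines, and the call ended without any array of L428, KM-H2 or HDLM2. DDIT4 had 13.26 in L540Cy and 11.64 in L540, ENO2 had 11.44 in L540Cy and 9.88 in L540, and PDK3 had 9.81 in L540Cy and 8.41 in L540, none of which was called.

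Duplicate arrays of a line differed for a small set of members. With 2 arrays a line these differences are descriptions without a test. In HDLM2, 6 of the 34 members (17.6%) differed by over 1 log2, against 1.45% of all genes, and all 6 were higher in replicate 2: EGLN1 by 1.49 log2, PFKFB4 by 1.41, ALDOC by 1.34, BNIP3L by 1.21, PDK1 by 1.14 and ANKRD37 by 1.01 log2. In L428, 4 members (11.8%) did so, against 0.228% of all genes. They were DDIT4 by 1.23 log2, ANKRD37 by 1.18, KDM3A by 1.05 and ADM by 1.01 log2, again all higher in replicate 2. In L1236, 4 members (11.8%) differed by over 1 log2, against 0.718% of all genes. DDIT4 (2.06 log2), PFKFB3 (1.13 log2) and KDM3A (1.04 log2) were higher in replicate 2 and EPAS1 (1.18 log2) in replicate 1.

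In KM-H2, 0 of the 34 members differed by over 1 log2, against 1.06% of all genes. In Reh there were 5 (14.7%, against 5.96% of all genes): ENO2 by 2.85 log2, VEGFA by 1.89, EGLN1 by 1.56, ALDOC by 1.53 and ADM by 1.02 log2. In Namalwa there were 3 (8.82%, against 6.89%): ADM by 1.58, P4HA1 by 1.18 and BNIP3 by 1.04 log2. By role, the median absolute difference between duplicates of hypoxia-induced genes was 0.51 log2 in L428, 0.58 in L1236, 0.18 in KM-H2, 0.51 in HDLM2, 0.60 in Reh and 0.56 log2 in Namalwa. For the 4 regulatory kinases it was 0.39, 0.84, 0.17, 0.59, 0.06 and 0.52 log2 in the same lines. For lower glycolysis it was 0.05, 0.11, 0.06, 0.12, 0.12 and 0.12 log2, and the HIF group reached 0.71 log2 in HDLM2. Differences of all 34 members had a median absolute size of 0.08 log2 in KM-H2 and of 0.18 to 0.35 log2 in the other duplicated lines. For all genes it was 0.16 log2 in KM-H2 and 0.14 to 0.28 log2 in the other duplicated lines. The medians by role have no all-gene value beside them.

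Of the 9 hypoxia-induced genes, 8 were higher in replicate 2 of L428, 9 in that of L1236 and 7 in that of HDLM2, but 4 in KM-H2, 3 in Reh and 2 in Namalwa. The share of all genes that were higher in replicate 2 was not counted. The ACTB control probe sets, which read a transcript at its 3' and 5' ends as a sign of RNA integrity, had a smaller 3' minus 5' difference in replicate 2 of all 6 lines. It was 0.37 in replicate 2 and 0.52 in replicate 1 of L428, 0.42 and 0.73 in L1236, and 0.54 and 0.87 log2 in HDLM2. In the same order it was 0.86 and 1.02 in KM-H2, 0.58 and 0.92 in Reh, and 0.78 and 1.16 log2 in Namalwa. For the GAPDH control probe sets the 3' minus 5' difference lay between 0.14 and 0.25 log2 on these arrays. It was smaller in replicate 2 of the duplicated lines except L1236, with 0.19 in replicate 2 and 0.18 in replicate 1. The part of these differences in the members' values was not tested.

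**Figure D5:**
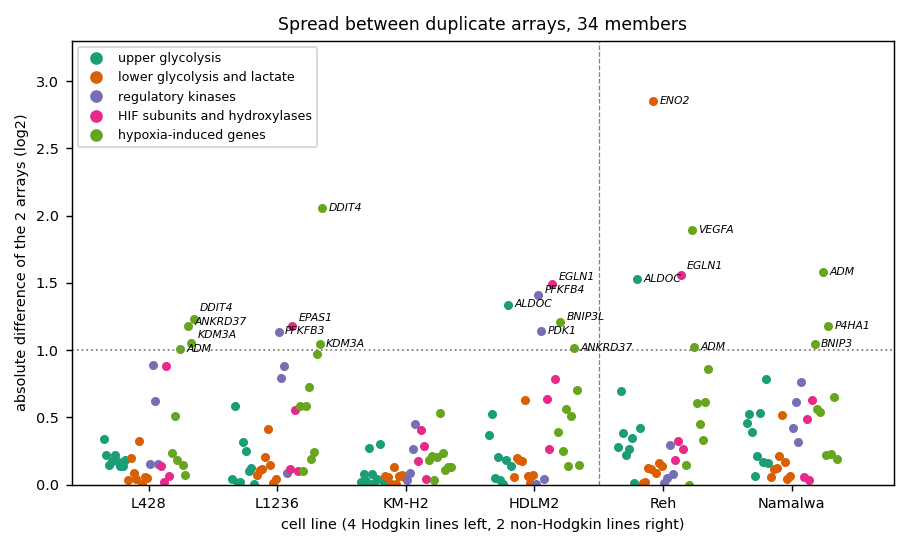
Absolute difference in log2 signal between the 2 arrays of a line (y axis) for each of 34 members (points, coloured by role) in the 6 duplicated lines (x axis, 4 Hodgkin lines left). Points above the dotted line at 1 log2 are named, and KM-H2 has none.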

How the data were processed

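The deposited log2 values were made by the authors with RMA, per the submitters' processing notes. The program used is not given in the sources used here. Deposited were 54675 probe sets, 62 of them controls that were dropped. The platform annotation gave a single symbol to 41091 probe sets, several to 1801 and none to 11721. By Entrez identifier 41037 of the first kind matched RefSeq, and 0 were renamed. The brightest probe set stood for a gene, which left 19775 genes, 10523 of them with several probe sets, with no filter on dim genes. Among the 34 members the brightest probe set was of the cross-hybridising kinds (x_at or s_at) for 4 and 14 genes, which can share signal with related transcripts.

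The two-sided tests used limma 3.58.1 (lmFit, eBayes; R 4.3.3) on line means (5 against 3) or on 15 arrays with a mean per line, with Benjamini-Hochberg adjustment over all genes at 0.05. Fits were tested on simulated data. No depth applies to arrays, whose number limits the precision. P-values of line contrasts measure the spread between duplicates only. The members and pathway lists were chosen with earlier results of these data known, and all members were to be named, with up to 3 called genes per direction of each list. Alternatives varied the probe set, scaling, dim filter, variance model, subline and arrays used. Chosen after seeing the data were the line contrasts without Reh replicate 1 and the alternatives for BHLHE40, ERO1A, SLC2A3, AK4 and their list. Identities of protein isoforms were not analysed here.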

Additional observations from a re-analysis of the deposited data

Results flagged for a closer look

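In each of the 34 members the 5 Hodgkin lines of origin were examined for a line whose gap to its nearest neighbour, divided by the whole range, exceeded Dixon's critical value of 0.71. Chance flags about 1 in 20 such groups if values are normally distributed, and 4 members were found. The rule was not run over all genes, so whether this count is particular to the members was not tested. PFKP was at 5.68 in L540 (mean with L540Cy), with the next Hodgkin line at 11.04. BNIP3 was at 3.82 in L540, with the next at 10.86. ENO1 was at 13.09 in L540, with the next at 13.82. HIF1A was at 10.86 in HDLM2, with the next at 12.01. The causes were not tested.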

How the results depend on the processing

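The members called higher in Hodgkin lines numbered 1. They were 2 with the mean of all probe sets, 2 with the most variable probe set, 0 without L540Cy and 3 in the fit of the 12 numbered arrays with the replicate block (3 also without the number), and 0 to 1 when lines or arrays were left out. Genes called over all were 150 higher and 121 lower. They were 233 and 191 with L540 and L540Cy as 2 lines, 328 and 243 in the replicate block fit, 416 and 275 in that fit without the number, and 68 to 218 and 69 to 181 with lines or arrays left out. Those 12 arrays lack L540, L540Cy and SU-DHL-4. Same-numbered arrays of different lines had correlated deviations in part: over 15 pairs of lines the correlation ran from -0.07 to 0.36 (median 0.20), with 10 over 0.1, and pairing was assumed only if every pair passed 0.1. The 2 other hypoxia-induced genes called were 1 with median-centred arrays, 1 with trend and robust variance, 1 without L540Cy, 4 in the replicate block fit, 4 without the number, and 0 to 2 with lines or arrays left out.

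Of the 34 members 22 kept their direction in every alternative run. Small differences turned for PFKL (-0.044 with the mean of probe sets, -0.040 after quantile normalisation, -0.047 centred, and -0.26 to 0.22 with lines or arrays left out), ENO1 (-0.12 with the most variable probe set, -0.068 centred, -0.080 with 2 lines, -0.13 to 0.27 left out), GAPDH (-0.0026 centred) and LDHB (0.0024 with 2 lines, -0.11 to 0.12 left out). In the 12-array fits PFKP had 0.39, ALDOC 0.21 and BNIP3 0.13 log2. With lines or arrays left out, PFKP ran from -1.14 to 0.43, ALDOA from -0.20 to 0.019, ALDOC from -1.11 to 0.073, LDHA from -0.14 to 0.0088, BNIP3L from -0.20 to 0.62, VEGFA from -0.10 to 0.72 and KDM3A from -0.053 to 0.46 log2. None of these 12 genes was called in an alternative.

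Members called in single lines were, with arrays left out, 6 to 17 in L428, 7 to 14 in L1236, 5 to 17 in KM-H2, 8 to 14 in HDLM2, 4 to 10 in Reh and 0 to 2 in L540Cy against L540. SU-DHL-4 had 7 with trend and robust variance, and L540Cy against L540 had 2 after quantile normalisation. PKM in L540 turned to 0.0069 with the mean of probe sets and 0.35 with the most variable one. Other probe sets also ended the calls of ENO1 and PDK3 in L540, HK2, PDK1 and PKM in HDLM2, and P4HA1 and PKM in KM-H2. The same held for PKM in L1236, PKM in Reh, EPAS1 in SU-DHL-4, and TPI1, HK2 and PKM in Namalwa. PGAM1 has 1 probe set, and its call in L1236 ended when other genes were read from their most variable probe set. Rescaling or the variance model ended the calls of DDIT4 in HDLM2, LDHB in L428 and PGAM1 in L1236 and Reh. It also ended those of PKM in L540 and EPAS1 in SU-DHL-4. The causes were not tested. The number of arrays limits all results, and for genes near background, such as ADM and EGLN3, differences are compressed.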
